A study of Arabidopsis thaliana with 12 samples.

Results

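The 70 genes described here are Arabidopsis thaliana genes known only by a locus code that lay on the positive side of the deposited ratio in the transformant line AK069096 and near 0 in 4 other lines. Each was chosen as a probe annotated with 1 gene, with a log2 ratio above 0.8 on both AK069096 arrays and between -0.5 and 0.5 on all 8 arrays of the lines AK073675, AK065297, AK102323 and AK073210. The rule took 70 of 8018 locus-only probes (0.873%), out of 21500 probes on the array, and the 70 probes stand for 70 loci. Because those 10 arrays chose the genes, their values there are given as a description. Over all probes the 2 AK069096 arrays spread wider (SD 0.66 and 0.62) than the 8 others (SD 0.40 to 0.57). A fixed cut-off and window do not allow for this, and its share in the choice was not tested. After quantile normalization of the arrays the rule took 17 genes, all among the 70. The 2 arrays of the sixth line, AK073112, took no part in the choice.

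The series compared RNA from the aerial parts of 6 lines, each transformed with 1 rice full-length cDNA clone and named by it, with RNA from wild type Col-0. Each line had 2 arrays with 2 dyes, 12 in all, with the transformant in Cy3 and Col-0 in Cy5 on every one. Plants grew at 22 °C under 16 h of light and 8 h of dark. What the rice clones encode, the promoter that drove them, how many plants or transformation events a line stands for, and plant age were not found in the labels. Nor is it given whether the 2 arrays of a line came from separate plants, so errors measure the spread between arrays. In the description field every array is called AK069096, those of AK073112 included, so lines follow the titles and sample sources. Values are log ratios, assumed to be log10 and converted to log2, so each log2 value, cut-off and channel ratio rests on that assumption. Whether a positive value means more RNA in the transformant or in Col-0 is not settled, so values are called positive or negative and not higher or lower. A log2 ratio of 1 is a ratio of 2 between the channels. In RNA from whole aerial parts, fewer cells of a type and less RNA per cell cannot be told apart. Ratios carry no levels, so the labelled tissue could not be checked against marker genes.

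A locus code such as AT1G22160 gives the chromosome and the order of a gene along it, and a gene that has only this code has no symbol in the annotation used. Such genes are often members of large protein families whose other members are well studied. The annotation gave a worded name for 1 of the 70 loci, AT4G40040, a gene of the histone variant H3.3, which replaces the replication-coupled histone in transcribed chromatin. The protein families given below for 37 further loci are general background and do not come from the deposited data, and the other 32 loci are described by their code alone. Sequences of these genes and of their probes were not used here.

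A pair of arrays has to be described before the results. Over the 21494 probes with all values, the array labelled AK073112 replicate 2 correlated with the AK069096 arrays at r = 0.80 and r = 0.82, and these correlated with each other at r = 0.80. With its own replicate it correlated at r = 0.35, while the replicates of the other 5 lines correlated at 0.59 to 0.80. The array labelled AK073112 replicate 1 correlated with the AK069096 arrays at 0.35 and 0.31. These are correlations across probes on arrays that share Col-0 as the reference and the order of the dyes, and arrays of different lines correlate too. With the 8 arrays of the other 4 lines, AK073112 replicate 2 correlated at 0.36 to 0.48, the AK069096 arrays at 0.35 to 0.58 and AK073112 replicate 1 at 0.11 to 0.25. The AK073112 arrays are therefore given separately throughout, and each count is given for each of them.

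In AK069096 the mean log2 ratios of the 70 genes ran from 0.81 to 1.88 with a median of 0.97, which corresponds to ratios between the channels of 1.75 to 3.67 with a median of 1.95. Most lay close to the cut-off, with 43 genes under a mean of 1 and 27 above it. The 2 arrays differed by at most 0.2 for 61 of the 70 genes, with a median absolute difference of 0.08. The 259 other locus-only probes above 0.8 on both arrays, which failed the window on the other lines, reached farther, up to 4.19 on replicate 1 against 1.96 among the 70.

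**Figure D1:**
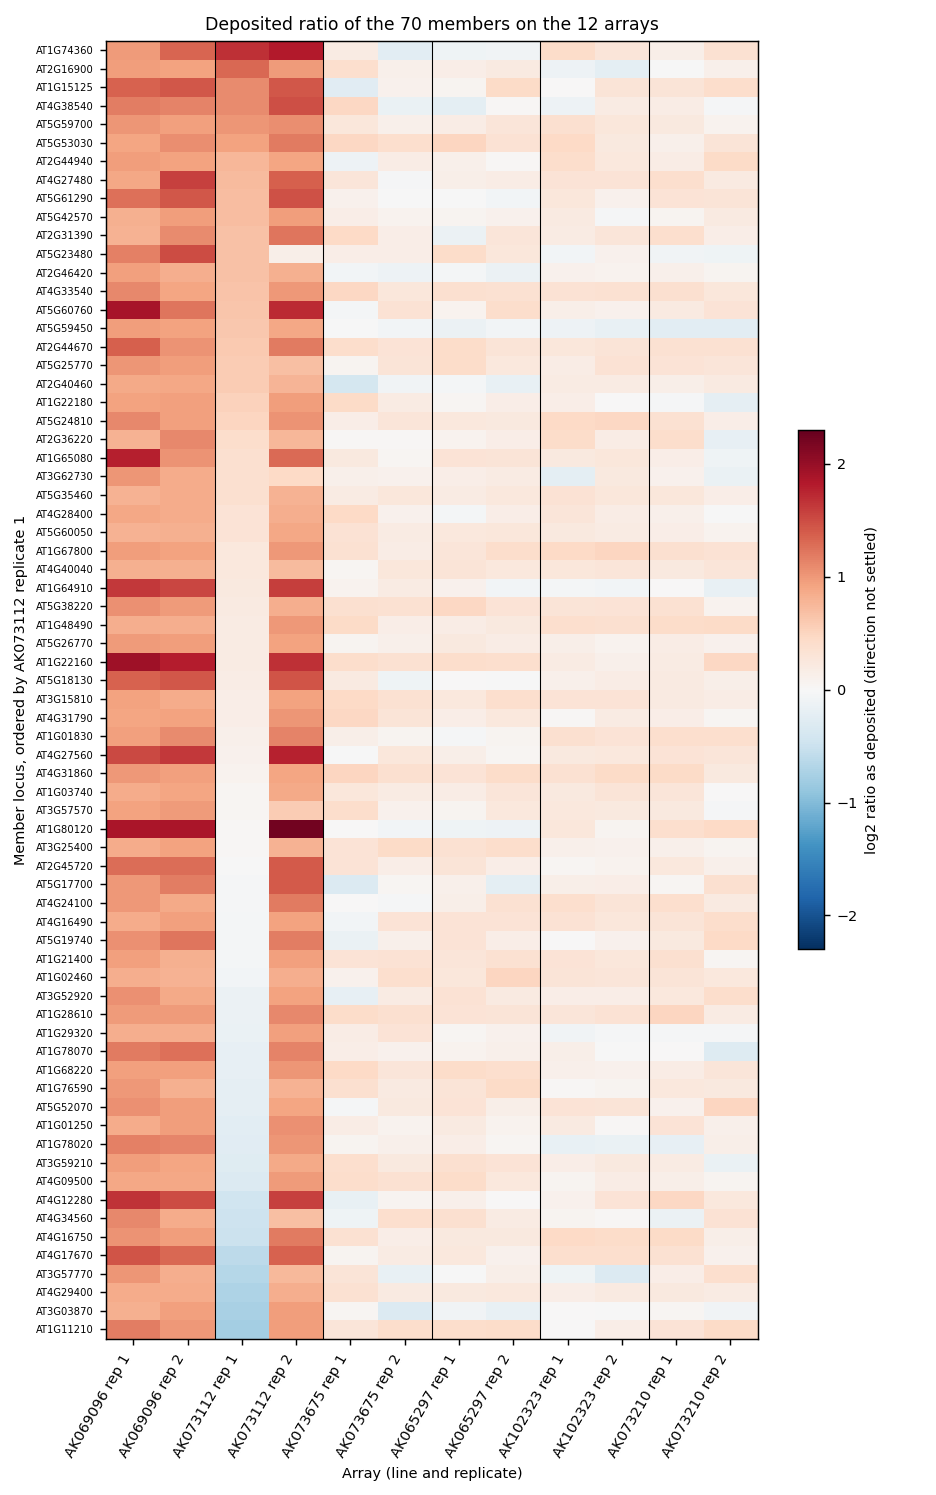
Log2 ratio of the 70 genes (rows, ordered by AK073112 replicate 1) on the 12 arrays (columns, by line and replicate), with red for positive and blue for negative values. The AK073112 replicate 2 column resembles the AK069096 columns, with 59 genes above 0.8, while the AK073112 replicate 1 column runs from 1.68 to -0.77.

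The choice did not use the AK073112 arrays, which differed from each other. They also differed in spread over all probes, with an SD of 0.54 on replicate 1 and 0.68 on replicate 2. On replicate 2, 59 of the 70 genes lay above 0.8, against 6.96% of all locus-only probes and 7.45% of all probes. On replicate 1, 6 of the 70 did (8.57%), against 4.69% of locus-only probes and 5.15% of all probes. For 37 genes replicate 2 was above 0.8 while replicate 1 lay within 0.5 of 0, a pattern found in 3.78% of locus-only probes and in 45.9% of the 259 others. The median of the 70 genes was 0.16 on replicate 1 and 0.98 on replicate 2, and all locus-only probes had medians of 0 and 0.01. Replicate 2 exceeded replicate 1 in 68 of the 70 genes, by a median of 0.85. It did so in 3946 of 8015 locus-only probes, with a median difference of 0, and in 229 of the 259 other AK069096-positive probes, with a median of 0.84, so the gap was about as wide in that group.

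On AK073112 replicate 2 the difference from the AK069096 mean was at most 0.2 for 58 of 70 genes (82.9%), with a median absolute size of 0.09. The same held for 72.0% of all locus-only probes, most of which lie near 0 on these arrays, and for 54.1% of the 259. Across the 70 genes, replicate 2 correlated with the AK069096 arrays at r = 0.68 and r = 0.72, and replicate 1 at r = -0.0031 and r = 0.15. These correlations are over genes selected on AK069096 on arrays with a common Col-0 reference, and serve as a description. On replicate 1, 5 of the 70 genes (7.14%) lay within 0.2 of the AK069096 mean, against 31.3% of locus-only probes and 9.27% of the 259, and 67 genes lay below it.

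**Figure D2:**
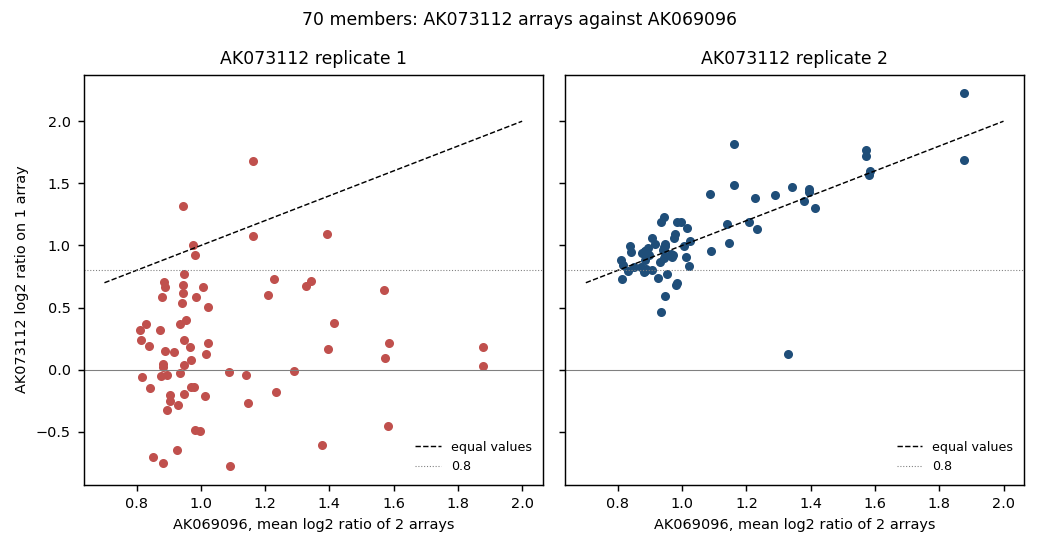
Log2 ratio of each of the 70 genes on AK073112 replicate 1 (left) and replicate 2 (right) against its mean over the 2 AK069096 arrays, with 1 point per gene, a dashed line of equal values and a dotted line at 0.8. On replicate 2, 58 genes lie within 0.2 of the dashed line, and on replicate 1, 5 do.

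Tested on the 2 AK073112 arrays alone, none of the 70 genes passed in limma (adjusted p from 0.481 to 1), and 0 of 21494 probes passed (0%). At an unadjusted p under 0.05, 16 of the 70 genes were on the positive side against 5.29% of all probes. The same fit on simulated arrays found 0 of 100 probes changed by a log2 of 1 and 0 of 100 changed by a log2 of 2, so the 0 says nothing about these genes. With the spread taken from all 12 arrays, 33 of the 70 genes passed, all on the positive side, against 10.3% of all probes on that side. That spread is partly fixed by the choice of genes, which bounded 8 of the 12 arrays. The choice did not bound it for all probes, so the 33 genes cannot be weighed against that share. In the same kind of fit, 67 genes passed on the positive side with AK073112 replicate 2 as the only array of its line, against 15.6% of all probes. With replicate 1 as the only array, 21 passed on the positive side, against 11.1%, and 7 on the negative side, against 11.4%. In these last fits the lone array is assumed to vary like the arrays of the other lines. The spread in them came only from the 10 arrays that chose the genes. The rule limited the values on those arrays for the 70 genes but not for all probes. The counts of the 70 genes in these last fits therefore cannot be weighed against the shares of all probes, and no conclusion is drawn from them.

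On both AK073112 arrays 44 of the 70 genes (62.9%) were positive. The share was 29.3% among all locus-only probes and 76.4% among the 259 other probes positive in AK069096. All 70 genes were positive on replicate 2, so the 44 is the count of replicate 1. Above 0.8 on both arrays lay 6 of the 70 genes (8.57%). This share was 1.5% among all locus-only probes and 22.4% (58 of 259) among the other probes positive in AK069096. The 6 genes were AT1G74360, AT4G38540, AT1G15125, AT2G16900, AT5G53030 and AT5G59700. Both receptor-like kinase genes among the 70 belong to this group. Receptor-like kinases sit in the plasma membrane and pass signals from outside the cell to the inside, and that of AT1G74360 has leucine-rich repeats in its outer part. AT1G74360 had log2 ratios of 1.68 and 1.82 on AK073112 replicates 1 and 2 and of 0.98 and 1.34 on the AK069096 arrays, with the 8 other arrays from -0.25 to 0.42 (median 0.16). It was the highest of the 70 genes on AK073112 replicate 1, and the 2 AK073112 arrays lay above both AK069096 arrays. Its AK073112 mean was 1.75 ± 0.11 (n = 2 arrays, SE moderated by limma with the spread of all probes). The limma adjusted p was 0.481 on these arrays alone and 0.000452 with the spread of all 12 arrays. The choice of genes bounded 8 of those 12 arrays, and this gene was named for its high AK073112 mean. No conclusion is therefore drawn from the second p. AT5G59700, of the malectin-type receptor kinases, had 1.01 and 1.06 in AK073112, 1.01 and 0.94 in AK069096 and 0.08 to 0.37 on the 8 other arrays (median 0.25). All 4 values of these 2 lines lay close together. That they lay above the 8 others follows from the limits, as in each of the 6 genes.

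AT4G38540, a gene of a flavin-dependent monooxygenase type, stood at 1.08 and 1.49 on AK073112 replicates 1 and 2, at 1.18 and 1.14 on the AK069096 arrays, and between -0.23 and 0.47 on the 8 others. AT1G15125, of the family of methyltransferases that methylate small acids such as salicylate and jasmonate, stood at 1.09 and 1.43, against 1.35 and 1.44 in AK069096 and -0.26 to 0.44 on the 8 others. In both genes the 4 values of the 2 lines lay apart from the 8 others without overlap. The limits fixed this for both lines, since these genes were grouped for values above 0.8 on both AK073112 arrays. AT2G16900, a gene related to phospholipases, was 1 of only 2 genes with the larger value on AK073112 replicate 1, with 1.32 there and 0.99 on replicate 2, and with 0.96 and 0.93 in AK069096. AT5G53030, for which no function is given here, had 0.92 and 1.19 in AK073112 and 0.90 and 1.07 in AK069096.

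The other gene with the larger value on replicate 1 was AT5G23480, also without a function given here. It had 0.68 on AK073112 replicate 1 and 0.13 on replicate 2, the lowest replicate 2 value of the 70 genes, against 1.15 and 1.50 in AK069096. It was thus far from AK069096 on the array that otherwise resembled it. AT3G62730 was the only other gene within 0.5 of 0 on replicate 2, with 0.37 on replicate 1 and 0.47 on replicate 2, against 1.01 and 0.86 in AK069096.

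At the other end, 5 genes lay below -0.5 on AK073112 replicate 1 (10.4% of locus-only probes did so), and replicate 2 was above 0.8 in 4 of these. AT1G11210 had -0.77 and 0.96 on replicates 1 and 2, with 1.18 and 1.0 in AK069096. AT3G03870 had -0.75 and 0.95, with 0.82 and 0.95 in AK069096, and AT4G29400 had -0.70 and 0.83, with 0.85 on both AK069096 arrays. AT3G57770 had -0.65 and 0.74, so that its mean of 0.05 was the lowest of the 70 genes. The AK073112 arrays thus fell on opposite sides of 0 in all of these. The fifth gene, AT4G17670, is described with its family below. Low means of the same kind, with both arrays far apart, were found in AT4G34560 (-0.49 and 0.68) and AT3G59210 (-0.28 and 0.87).

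**Figure D3:**
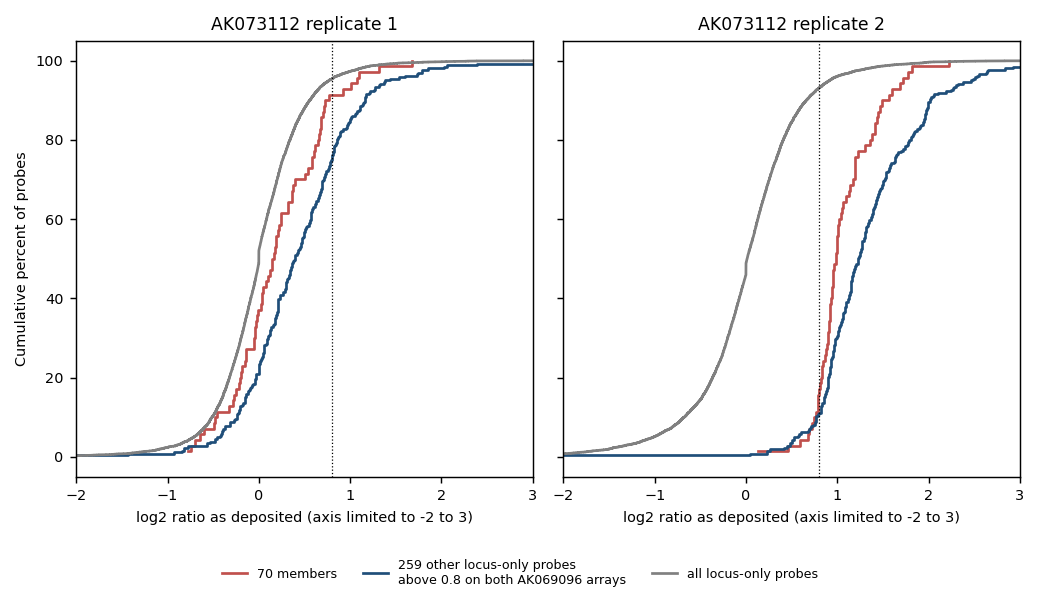
Cumulative percent of probes (vertical axis) against log2 ratio (horizontal axis) on AK073112 replicate 1 (left) and replicate 2 (right) for the 70 genes, the 259 other locus-only probes above 0.8 on both AK069096 arrays, and all locus-only probes, with a dotted line at 0.8. On replicate 2, 84.3% of the 70 genes and 89.2% of the 259 lie above 0.8, and on replicate 1, 8.57% and 24.3% do.

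The 259 locus-only probes that were positive in AK069096 but failed the window elsewhere serve as the comparison group. On AK073112 replicate 2, 231 of 259 (89.2%) lay above 0.8, against 84.3% of the 70 genes. On replicate 1, 63 of 259 (24.3%) did, against 8.57%. The median of the 259 on replicate 1 was 0.39, and that of the 70 genes 0.16. Both groups were measured on the same arrays, and the difference between them was not tested.

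By protein family, 4 of the 70 were FCS-like zinc finger genes. How many probes of each family the array holds was not counted. These small proteins are found in plants and bind the energy-sensing SnRK kinase, which restrains growth when sugar is short. AT1G22160 had the highest AK069096 mean of the 70 genes (1.88, level with AT1G80120), with 1.96 and 1.80 on replicates 1 and 2, and 0.12 to 0.47 on the 8 arrays of the other lines (median 0.37). On AK073112 it stood at 0.18 and 1.68. AT4G17670 had 1.45 and 1.31 in AK069096, 0.06 to 0.39 on the 8 others, and -0.60 and 1.36 on the AK073112 arrays. For these 2 genes, replicate 2 lay with AK069096, and replicate 1 lay within the range of the 8 others for AT1G22160 and below it for AT4G17670. AT2G44670 had 1.38 and 1.04 in AK069096 and 0.60 and 1.19 in AK073112, against 0.25 to 0.42 on its 8 others. AT1G78020 had 1.16 and 1.13 in AK069096 and -0.27 and 1.02 in AK073112, against -0.20 to 0.15 on the 8 others.

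UDP-glycosyltransferases, which attach sugars to hormones, pigments and other small molecules, had 3 genes. AT1G64910 had 1.63 and 1.54 in AK069096, 0.22 and 1.60 in AK073112, and -0.17 to 0.18 on the 8 others (median -0.02). AT4G27560 had 1.52 and 1.62 in AK069096, 0.10 and 1.77 in AK073112, and -0.02 to 0.31 on the 8 others. AT4G09500 was weaker, with 0.90 and 0.89 in AK069096, -0.32 and 0.98 in AK073112, and 0.06 to 0.42 on the 8 others. Replicate 1 of AK073112 lay below replicate 2 by 1.38, 1.67 and 1.30 in these genes, in this order. This family has many close copies, and whether its probes pick up RNA of related genes was not tested.

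Genes of transcription regulators had AK069096 means of 0.91 to 1.0. Of 3 ERF genes, a family that responds to ethylene and stress, AT4G16750 had 1.03 and 0.96 in AK069096 and -0.49 and 1.19 in AK073112, and AT1G01250 had 0.85 and 0.96 against -0.25 and 1.06. The third, AT2G44940, differed from them in having close AK073112 arrays, with 0.77 and 0.91, against 0.96 and 0.93 in AK069096 and -0.12 to 0.43 on the 8 others. AT5G59450, of the GRAS family of growth regulators, was the only gene of the 70 that was negative on all 8 arrays of the other lines (-0.25 to -0.01, median -0.13). It had 0.96 and 0.92 in AK069096 and 0.61 and 0.90 in AK073112. AT1G76590, of the PLATZ zinc finger type, had 0.99 and 0.82 in AK069096 and -0.20 and 0.80 in AK073112.

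**Figure D4:**
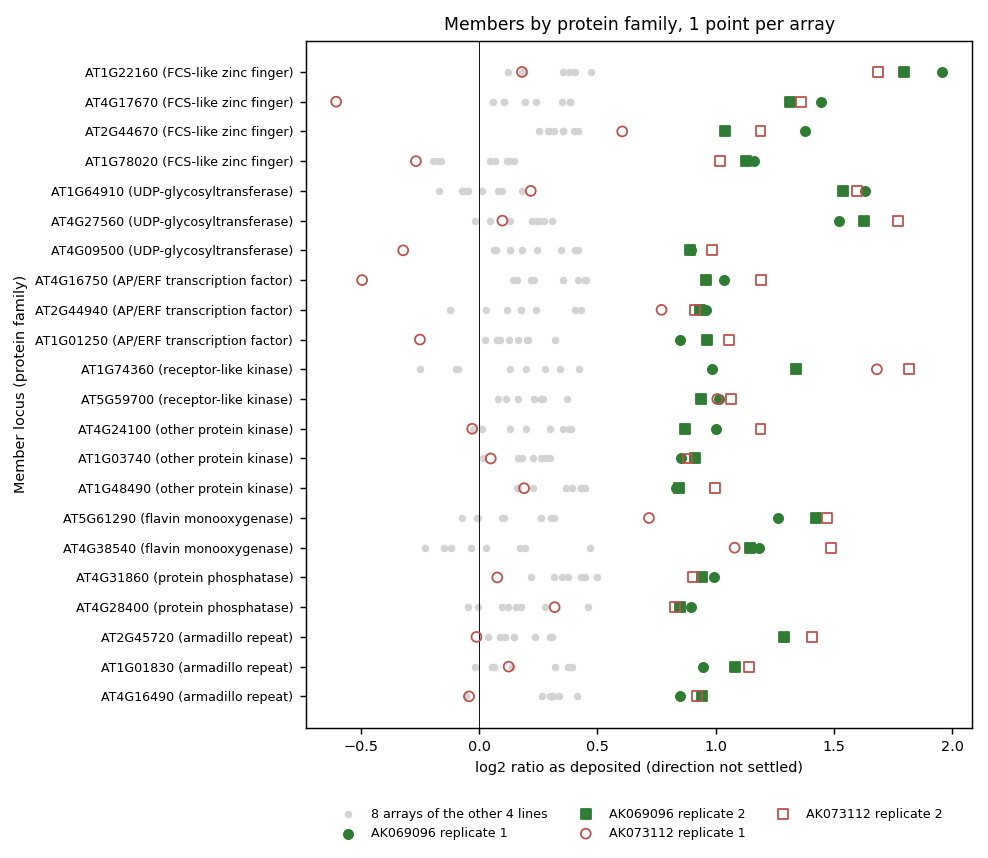
Log2 ratio (horizontal axis) of the genes of 8 protein families (vertical axis), with 1 point per array in filled green for AK069096, open red for AK073112 and grey for the 8 arrays of the other lines, and circles and squares for replicates 1 and 2. Apart from AT1G74360 and AT4G38540 the red squares lie near the green points, while the red circles run from left of the grey points, as in AT4G17670, to right of them, as in AT1G74360, AT5G59700, AT4G38540, AT5G61290, AT2G44670 and AT2G44940.

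Among signalling enzymes other than the receptor-like kinases, 3 protein kinase genes followed the main pattern. AT4G24100 had 1.0 and 0.87 in AK069096 and -0.03 and 1.19 in AK073112, AT1G03740 had 0.85 and 0.91 against 0.05 and 0.88, and AT1G48490 had 0.83 and 0.84 against 0.19 and 1.0. The protein phosphatase genes AT4G31860 and AT4G28400, whose products remove phosphate from other proteins, had AK069096 means of 0.97 and 0.87. Their AK073112 values were 0.08 and 0.90 for the former and 0.32 and 0.83 for the latter. AT1G67800, a gene of a copine-like ubiquitin ligase, had 0.96 and 0.93 in AK069096 and 0.24 and 1.0 in AK073112. In these 6 genes replicate 2 lay between 0.83 and 1.19 and replicate 1 between -0.03 and 0.32.

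AT1G80120, whose product resembles a protein induced by infection with downy mildew, had the same AK069096 mean of 1.88 as AT1G22160 and the widest gap between the AK073112 arrays. It stood at 1.88 and 1.87 in AK069096, at 0.03 and 2.23 on AK073112 replicates 1 and 2, and between -0.11 and 0.47 on the 8 others. AT4G12280 followed in width of that gap, with -0.46 and 1.56 in AK073112 and 1.67 and 1.49 in AK069096. Replicate 1 lay within or below the range of the 8 other arrays in both. AT5G18130 had 1.36 and 1.44 in AK069096 and 0.17 and 1.45 in AK073112. AT5G60760 and AT1G65080 had less alike AK069096 arrays, with 1.90 and 1.24 for the former and 1.79 and 1.04 for the latter, the widest gap of the 70. Their AK073112 values were 0.64 and 1.72, and 0.37 and 1.30.

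Genes of metabolism and transport were spread over the range. AT5G61290, the second flavin monooxygenase gene, had 1.26 and 1.42 in AK069096 and 0.72 and 1.47 in AK073112. AT4G27480, a glycosyltransferase gene of the type that branches sugar chains, had 0.88 and 1.57 in AK069096 and 0.73 and 1.38 in AK073112. AT2G31390, a fructokinase gene that feeds fructose into glycolysis, had 0.80 and 1.09 against 0.68 and 1.23. These 3 had replicate 1 values above 0.5, and so above the window that held their 8 other arrays. AT1G21400, for a subunit of the mitochondrial dehydrogenase that breaks down branched-chain amino acids, had 0.94 and 0.81 in AK069096 and -0.05 and 0.94 in AK073112. AT5G17700, of the MATE family of efflux carriers, had 0.99 and 1.19 against -0.02 and 1.41, and AT2G40460, of the peptide and nitrate transporter family, had 0.87 and 0.89 against 0.58 and 0.79. The polygalacturonase gene AT1G02460, whose type of enzyme cuts wall pectin, had 0.83 and 0.81 against -0.06 and 0.84. The esterase gene AT1G28610 had 0.98 on both AK069096 arrays and -0.14 and 1.10 in AK073112.

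Armadillo and WD repeats are folds that bind other proteins. The armadillo repeat gene AT2G45720 had 1.29 on both AK069096 arrays and -0.01 and 1.41 in AK073112, and the armadillo genes AT1G01830 and AT4G16490 had AK069096 means of 1.01 and 0.90, with AK073112 values of 0.12 and 1.14, and of -0.04 and 0.92. AT1G78070, a WD repeat gene, had 1.20 and 1.27 in AK069096 and -0.18 and 1.13 in AK073112. AT1G22180, of a lipid transfer type, had 0.93 and 0.95 against 0.53 and 0.96. The H3.3 gene AT4G40040 had 0.81 and 0.82 in AK069096 and 0.24 and 0.73 in AK073112, and its AK069096 mean was the second lowest of the 70. Genes for this histone are close copies of each other, and cross-hybridisation was not tested.

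Some loci without a function given here had AK073112 arrays close together. AT2G46420 had 0.94 and 0.83 in AK069096 and 0.67 and 0.81 in AK073112, with -0.13 to 0.12 on the 8 others, and AT5G42570 had 0.81 and 0.96 against 0.71 and 0.96, with -0.02 to 0.20 on the 8 others. AT4G33540 had 1.10 and 0.91 against 0.66 and 1.0. In AT5G25770 (0.58 and 0.69) and AT2G36220 (0.40 and 0.77) both AK073112 arrays lay below 0.8, as they did in AT3G57570 (0.04 and 0.59). In others the arrays lay far apart. AT5G19740 had 1.05 and 1.23 in AK069096 but -0.04 and 1.17 in AK073112, AT1G68220 had 0.95 and 0.94 but -0.19 and 1.01, and AT1G29320 had 0.84 on both but -0.15 and 0.95. In all, AK073112 replicate 1 lay between 0.5 and 0.8 in 15 of the 70 genes, above 0.8 in 6, within 0.5 of 0 in 44 and below -0.5 in 5. Between 0.5 and 0.8 it also held 590 of 8015 locus-only probes and 49 of the 259. Within 0.5 of 0 were 62.9% of the 70 genes, 77.6% of locus-only probes and 52.9% of the 259. Replicate 2 lay between 0.5 and 0.8 in 9 of the 70 genes, above 0.8 in 59 and within 0.5 of 0 in 2. The last share was 2.86%, against 69.98% of locus-only probes and 3.09% of the 259.

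In the 4 lines that define the window, values were bounded by the choice, and they were not spread evenly around 0. Of the 560 values, 473 (84.5%) were positive, against 50.4% of the values of all locus-only probes on these arrays and 92.7% of those of the 259 other AK069096-positive probes. Line medians of the 70 genes were 0.16 in AK073675, 0.22 in AK065297, 0.19 in AK102323 and 0.21 in AK073210, with 58, 61, 63 and 61 of the 70 line means positive. All 8 values were positive in 31 of the 70 genes, and the same count was not made for other probes. The values ran from -0.41 to 0.50. All arrays have Col-0 in the other channel, and its share in these values cannot be told apart from that of the lines. The dyes were also in the same order on every array, so an effect of the dyes on a probe cannot be told apart either.

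The limits that chose the genes cut through a continuous range. Just inside on AK069096 were AT2G36220 and AT5G60050, each with 0.801 on the lower of its arrays, and just outside were AT4G00040 at 0.797 and AT5G09300 at 0.791. Just inside the window were AT5G53030 and AT4G31860, with a largest absolute value of 0.498 on the 8 arrays, and just outside were AT1G04770 at 0.505 and AT5G58210 at 0.512. The genes just outside had 0.87, 0.84, 1.28 and 0.96 on AK073112 replicate 2, in this order, and -0.09, 0.04, -0.27 and 0.72 on replicate 1.

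By chromosome the 70 loci divided into 21 on chromosome 1, 8 on chromosome 2, 8 on chromosome 3, 16 on chromosome 4 and 17 on chromosome 5. Chromosome 4 held 22.9% of them and 14.2% of all locus-only probes, and chromosome 3 held 11.4% against 19.7%. No 2 of the 70 were neighbours in the order of protein-coding genes. Their direct neighbours had 52 probes on the array, of which 7 (13.5%) lay above 0.8 on both AK069096 arrays, against 4.31% of all probes with 1 gene. AT1G80130, next to AT1G80120, had 3.92 and 3.32 in AK069096 and 1.26 and 3.49 in AK073112, and failed the window with 1.13 to 1.87 on the 8 other arrays. AT4G12290, next to AT4G12280, had 2.18 and 2.05 in AK069096 and -0.42 and 2.02 in AK073112, the same split between the arrays as its neighbour, with up to 0.73 on the 8 others. Whether neighbouring genes share probe sequence was not tested.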

How the data were processed

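The authors deposited 1 log ratio per probe and array. Agilent Feature Extraction 7.1.1 is listed in the submitters' processing notes. How background and dyes were treated, the log base and the direction are not given in the sources here, and channel intensities were not used. The deposited values have a median of 0 on all 12 arrays. The values the authors deposited were assumed to be log10 ratios, the base this program writes, and were put on the log2 scale; they do not themselves settle the base. The number of arrays limits the precision. Of 21500 probes, 9335 are listed with 1 gene, 9317 of these matched the TAIR10.1 gene table by gene ID, and 8018 had a locus code as their only symbol. All 70 matched. AK073112 was tested against 0 with limma 3.58.1 in R 4.3.3 on its 2 arrays, with two-sided p-values adjusted by Benjamini-Hochberg over all 21494 probes and a threshold of 0.05. The fit was tested on simulated data. The members and lists were chosen with earlier results of these data known. Genes named were the 10 highest in AK069096, the 6 highest and 6 lowest in AK073112, and the 4 with the widest gap between its arrays, 19 in all; genes named for their family, for their place at a limit or for their neighbours, and those without a function, were added after their values were seen. The planned grouping by function words and the promoter motif counts were not run, because the tables used here hold neither descriptions nor sequences.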

Additional observations from a re-analysis of the deposited data

How the results depend on the processing

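Alternatives concerned 5 results. The 2-array limma fit passed 0 of the 70 genes and 0 of all probes (16 genes and 2167 probes at an unadjusted p under 0.05), also with quantile normalization, a robust spread or probes averaged by locus. With all 12 arrays it passed 33 genes and 4366 probes, and with exact zeros as missing 1 gene and 305 probes. Leaving out 1 AK073112 array gave 28 to 67 genes and 4838 to 6677 probes. The replicate block in the 12-array fit gave 27 genes and 4134 probes. Whether replicate numbers pair the lines was not settled. Deviations from line means correlated over 0.1 in 2 of 15 pairs of lines (from -0.07 to 0.17). The median of the 70 genes in AK073112 was 0.58, 0.47 with quantile normalization, and 0.16 to 0.98 with 1 of its arrays. The count above 0.8 on both AK073112 arrays was 6, and 6 to 59 with 1 of them. The number of genes chosen moved from 70 to 18 with a cut-off of 1.0 on AK069096, to 202 with 0.6, to 33 with a window of 0.4 and to 17, all among the 70, after quantile normalization of the arrays. It was 105 with a window of 0.6, 70 to 126 without 1 array, and highest without AK069096 replicate 2 (126) or replicate 1 (121). The causes were not tested. A filter on dim probes could not be run without channel intensities.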
